A study of Mus musculus with 3 samples.

Results

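The transcripts of 9 genes of the complement system were followed in mouse lung, in whole cells and in isolated nuclei. C1qa, C1qb and C1qc encode the 3 chains of C1q, C4b and C3 encode the components C4 and C3, Cfb encodes factor B, C7 encodes a terminal component, and C3ar1 and C5ar1 encode the receptors of the fragments C3a and C5a. The genes were chosen by name and are 9 of the 21507 genes that were counted in both deposited tables. All lungs came from wild type C57Bl/6J mice, and no group was treated. The cell group held 1 library, made from fresh lung that was digested with collagenase and DNAse, broken up mechanically and passed through an Optiprep gradient to remove dead cells. The nucleus group held 2 libraries, here nuclei 1 and nuclei 2, made from lung of adult mice that was snap frozen, lysed in cold Nuclei EZ buffer, broken up mechanically and filtered. All 3 libraries were 10x Chromium 3′ v3 libraries, in which a unique molecular identifier (UMI) marks each captured transcript. Fresh digestion and frozen lysis went together with cells and nuclei, so preparation and compartment cannot be told apart. The labels name no separate animals, but the Xist and Uty levels given below show that the 2 nucleus libraries came from animals of different sex. Each p-value within a class or over whole libraries measures only the spread between these 2 libraries, in which sex and technical spread cannot be told apart. Fits over all classes at once use another spread, given with the interaction test below. The cell group had no replicate.

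Complement is a cascade of plasma and membrane proteins that marks microbes and dying cells for removal and draws in phagocytes. C1q binds antibodies and altered surfaces and starts the classical pathway, which cleaves C4 and then C3, while factor B joins C3 fragments in the convertase of the alternative pathway. Terminal components, C7 among them, assemble into the membrane attack complex, and the small fragments C3a and C5a signal through receptors on leukocytes. The liver makes most plasma complement, whereas C1q is made mainly by macrophages and dendritic cells, and fibroblasts and lining cells are known as local sources of other components.

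The cell library held 11934 barcodes with 35962788 UMIs, and nuclei 1 and nuclei 2 held 6849 and 9806 barcodes with 28062109 and 27148272 UMIs. The median barcode had 2864 UMIs in cells, 4152 in nuclei 1 and 2521 in nuclei 2. Barcode sequences shared by any pair of libraries numbered 21 to 24. Nuclei 2 stood apart in sex-linked genes: Xist was at 285, 1023 and 9.62 CPM (its UMIs scaled to the same total in every library) in cells, nuclei 1 and nuclei 2, and the Y-linked Uty at 1.03, 0.927 and 269 CPM. Folds over whole libraries and in the leading classes are therefore also given without nuclei 2, as values with no test. Barcodes were clustered separately in each table, with the complement genes left out of the clustering, and clusters were named from marker genes, so each class name stands for barcodes that resemble that type. The macrophages near airways and vessels, here interstitial macrophages, were 87 cells and 166 and 135 nuclei, led by Ms4a7 with Pf4 and Apoe in cells and with St18 and Aoah in most nuclei. Alveolar macrophages were 2261 cells and 157 and 436 nuclei. Mesothelial barcodes, from the lung's outer lining and led by Muc16, were 79, 102 and 329. Adventitial fibroblasts were 229, 56 and 61, and alveolar fibroblasts were 745, 758 and 1058. Which nuclei were called adventitial depended on the clustering. A finer one (resolution 2) gave 231 cells and 186 and 300 nuclei, and a coarser one (0.5) gave 226 cells and no nuclei. B cells (484, 132 and 343 barcodes) were assumed to lack the 9 transcripts. Their values stand below as a reference for background, since free RNA itself was not measured.

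All 9 genes lie on the minus strand in the GENCODE M21 annotation of mm10. The C1q genes form 1 cluster on chromosome 4, with C1qb at chr4:136880129-136886187, C1qc at chr4:136889804-136893065 and C1qa at chr4:136895917-136898803; the gaps between them are 3.6 and 2.9 kb and each has 3 exons. C4b (chr17:34728380-34743882, 41 exons) and Cfb (chr17:34856374-34862518, 18 exons) lie 112.5 kb apart, and C3 lies on the same chromosome at chr17:57203970-57228136 with 41 exons. C7 is by far the longest of the 9 at 75.0 kb (chr15:4988762-5063740, 18 exons). C3ar1 (chr6:122847138-122856161) and C5ar1 (chr7:16246743-16259540) have 2 exons each. Counts are uncertain for Cfb, because the annotated readthrough gene Gm20547 overlaps 6107 bases of it on the same strand, and for C4b, because its near-identical copy C4a lies 65.2 kb away.

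RefSeq promoter windows of the same genome (GRCm38.p6) were found for 6 of the 9 genes, and the bases before the start of the gene are shown for C1qb and C1qc, which rose and fell together across classes, and for C3, which followed other classes. Stretches inside the GENCODE gene model were left out, which leaves chr4:136886201-136886450 for C1qb, chr4:136893066-136893164 for C1qc and chr17:57228137-57228386 for C3, all on the minus strand and written 5′ to 3′. Capitals mark AGGAAGT on either strand, the core letters of sites for ETS factors and PU.1, in C1qb and C1qc, and TTGCNNAA, the core letters of CEBP sites, in C3.
C1qb: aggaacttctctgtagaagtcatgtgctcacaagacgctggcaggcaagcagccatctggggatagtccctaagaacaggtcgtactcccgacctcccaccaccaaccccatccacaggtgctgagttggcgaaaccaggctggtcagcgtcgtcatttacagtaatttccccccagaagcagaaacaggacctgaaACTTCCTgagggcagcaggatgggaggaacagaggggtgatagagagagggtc
C1qc: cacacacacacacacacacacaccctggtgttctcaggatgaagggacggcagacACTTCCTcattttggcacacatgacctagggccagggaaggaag
C3: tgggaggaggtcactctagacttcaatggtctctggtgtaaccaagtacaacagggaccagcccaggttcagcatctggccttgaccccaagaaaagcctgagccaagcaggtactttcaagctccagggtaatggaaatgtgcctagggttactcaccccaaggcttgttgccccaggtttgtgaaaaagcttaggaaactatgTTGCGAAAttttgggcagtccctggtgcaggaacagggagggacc
The AGGAAGT letters, read as ACTTCCT on the strand shown, began at position -53 of C1qb and -195 of C1qc, counted from the RefSeq start. They also occurred at -190 and -72 of C5ar1, within its GENCODE gene model. Of 32851 promoter windows of 250 bases, 7.69% held AGGAAGT and 9.56% held TTGCNNAA, which C3 held at -45. TATAAA was found in 12.4% of windows, among them those of C7 at -6 and C3ar1 at -235. A match of letters is a description and not a site.

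C1q transcripts were concentrated in interstitial macrophages and were far more abundant there in whole cells than in nuclei. C1qa, the A chain, stood at 2030 CPM in interstitial macrophage cells (543 UMIs, exact Poisson 95% interval from counting error 1863 to 2208 CPM) and at 28.0 and 71.4 CPM in the nuclei (16 and 20 UMIs). C1qb, the B chain, stood at 1503 CPM in cells and 82.2 and 71.4 CPM in nuclei. C1qc, the C chain, stood at 751.5 CPM in cells and 43.8 and 46.4 CPM in nuclei. For each of the 3 genes the cell library was high, both nucleus libraries were low, and the groups did not overlap. Alveolar macrophages, the other resident macrophage type, carried 5.77 CPM of C1qa in cells and 4.91 and 9.53 CPM in nuclei, next to 10.6, 8.32 and 13.03 CPM in B cells. In both preparations interstitial macrophages ranked first among 16 compared classes, each holding 50 or more barcodes in all 3 libraries, and their nucleus range did not overlap that of the next class; from the next class down, most neighbours overlapped.

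**Figure D1:**
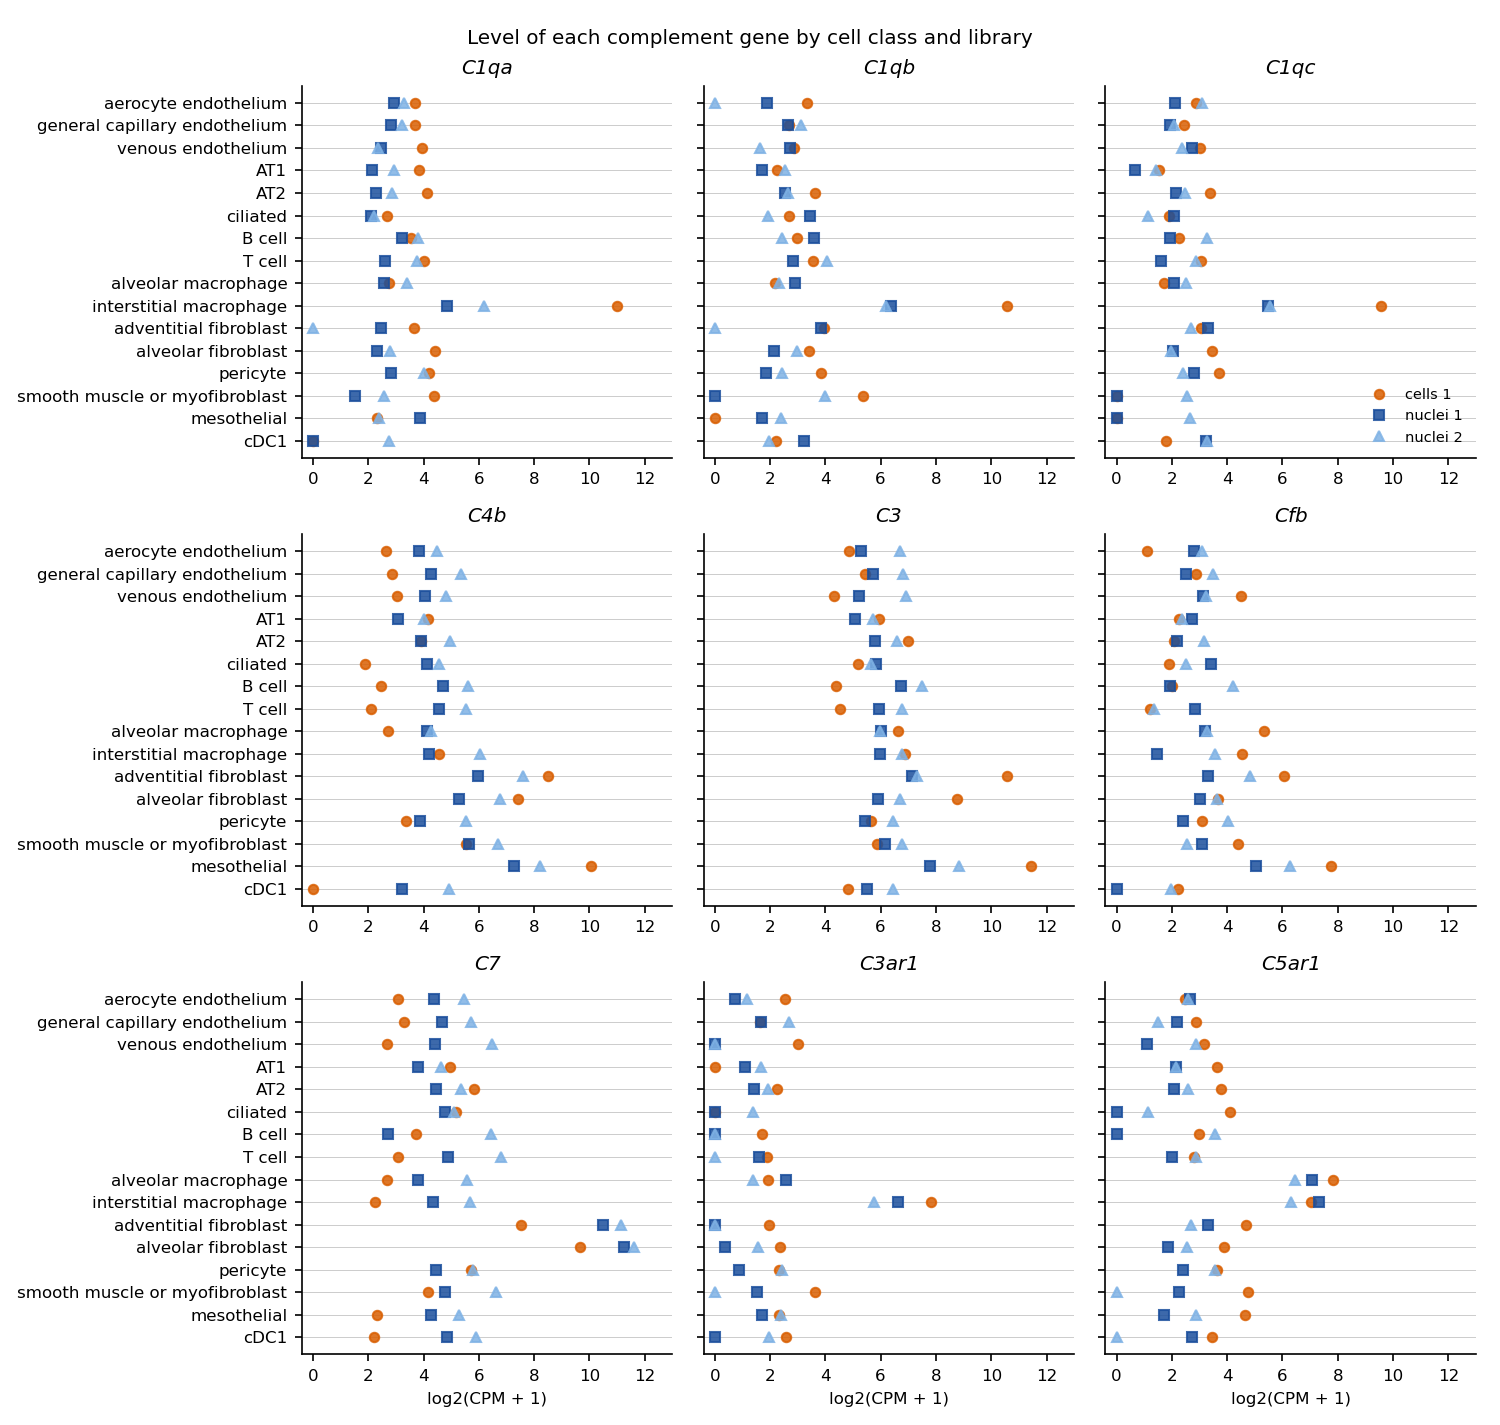
Level of each of the 9 genes, as log2(CPM + 1), in the 16 compared classes; each point is 1 library, orange for cells and dark and light blue for nuclei 1 and nuclei 2. C1qa, C1qb and C1qc peak in interstitial macrophages at 2030, 1503 and 751.5 CPM in cells, C3 and C4b in mesothelial barcodes and fibroblasts, and C7 in fibroblasts with the nuclei on the right.

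Per barcode the difference showed as co-detection. All 3 C1q genes were seen together in 64 of 87 interstitial macrophage cells, in 1 of 166 nuclei of nuclei 1 and in 0 of 135 of nuclei 2. At least 1 C1q gene was seen in 82 of 87 cells, 63 of 166 and 43 of 135 nuclei. After thinning each barcode to 1000 UMIs, C1qa was detected in 75.9% of interstitial macrophage cells (90.8% unthinned; exact binomial 95% interval of the thinned share 65.5 to 84.4%), at a median depth of 2819 UMIs. In nuclei the thinned share was 0.602% in nuclei 1 (9.64% unthinned, median 3436.5 UMIs) and 7.69% in nuclei 2 (14.1% unthinned, median 1984 UMIs), with 5 shallower nuclei left out of nuclei 2. B cells gave thinned shares of 0.826, 2.27 and 1.41% (unthinned 2.07, 2.27 and 1.75%) at median depths of 2547.5, 2442.5 and 1282.5 UMIs, with 59 nuclei left out of nuclei 2. The thinned share of nuclei 1 was therefore at the B cell background, and that of nuclei 2 and of the cells lay above it.

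**Figure D2:**
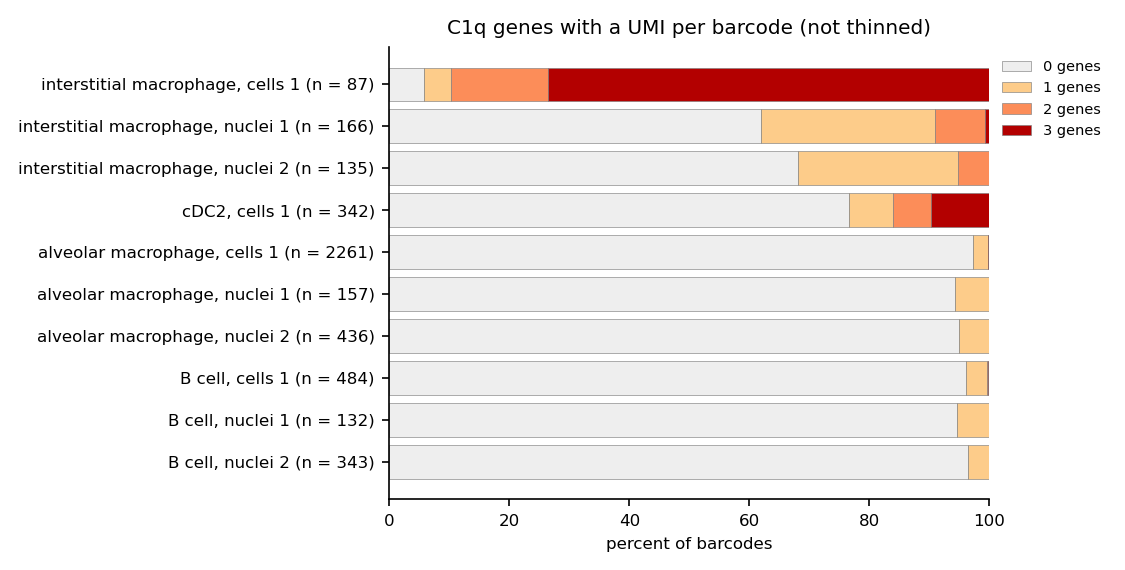
Percent of barcodes with a UMI of 0, 1, 2 or 3 of the C1q genes (not thinned), for interstitial macrophages, the cDC2 class of cells, alveolar macrophages and B cells in each library, with the number of barcodes beside each bar. Interstitial macrophage cells are mostly 3-gene barcodes (64 of 87), and nuclei of the same class mostly hold none.

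The make-up of C1q reads also differed between libraries. Among the 1146 C1q UMIs of interstitial macrophage cells, 47.4% were C1qa (exact 95% interval 44.5 to 50.3%), 35.1% C1qb and 17.5% C1qc. Nuclei 1 had 88 C1q UMIs in this class, of which 18.2% were C1qa (10.8 to 27.8%), 53.4% C1qb and 28.4% C1qc. Nuclei 2 had 53, of which 37.7% were C1qa (24.8 to 52.1%). The C1qa share of nuclei 1 lay below that of cells beyond counting error, while the interval of nuclei 2 overlapped that of cells.

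Within interstitial macrophages, edgeR's quasi-likelihood test on summed counts gave a log2 fold (cells minus nuclei) of 5.80 ± 0.446 (SE) for C1qa, with an adjusted p of 3.26e-35. The fold was 6.25 without nuclei 2 and 5.00 without nuclei 1, values with no test, so its size moved with 1 library. C1qb gave 4.60 ± 0.419 (adjusted p = 2.04e-25, edgeR; 4.42 without nuclei 2) and C1qc 4.39 ± 0.422 (adjusted p = 6.72e-23, edgeR; 4.26 without nuclei 2). In this class 16.4% of the 7063 genes tested passed an adjusted p of 0.05 on the higher side and 8.78% on the lower side; of the 8 members tested here 4 were higher and 0 lower. The nuclei of this class came in 2 make-ups, 1 led by F13a1 and Cd163 (F13a1 at 4913 and 3432 CPM in nuclei 1 and nuclei 2, against 176 CPM in the cells) and 1 led by Ms4a7 like the cells. C1qb was at 95.9 and 63.9 CPM in the F13a1-led nuclei and at 76.6 and 76.1 CPM in the others, and the ranges of C1qa overlapped as well. C1qc was at 40.4 and 45.6 CPM in the F13a1-led nuclei and at 46.5 and 46.9 CPM in the others, ranges that did not overlap, from 5 to 17 UMIs. Without the F13a1-led nuclei the folds were 5.87, 4.65 and 4.35 for C1qa, C1qb and C1qc. C1qa also passed in alveolar fibroblasts (20.5 CPM in cells, 4.03 and 5.84 CPM in nuclei; 1.97, adjusted p = 0.0253, edgeR) and in type 2 pneumocytes (16.5, 3.91 and 6.26 CPM; 1.72, adjusted p = 0.0294). These levels were near those of B cells, and both calls ended with DESeq2 (adjusted p = 0.210 and 0.199).

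C1q was also carried by part of the dendritic cells in the cell library. The cDC2 class, conventional dendritic cells led by Cd209a and Mgl2, held 191 CPM of C1qa, 145 CPM of C1qb and 89.5 CPM of C1qc in 342 cells. Its 33 barcodes with all 3 C1q genes carried 203 CPM of the macrophage marker Ms4a7 and 300.5 CPM of C3ar1, with 8.84 CPM of the dendritic growth factor receptor Flt3. Its 262 barcodes with no C1q gene carried 1.21 CPM of Ms4a7, 6.06 CPM of C3ar1 and 108 CPM of Flt3. These barcodes were split by C1q itself, so the values are a description of 1 library, and macrophages inside the cDC2 class were not separated from it. With cDC2 barcodes pooled into interstitial macrophages, the log2 folds were 4.15 for C1qa, 3.02 for C1qb and 2.93 for C1qc. Of all C1q UMIs, macrophages held 47.8% in cells, 21.8% in nuclei 1 and 16.9% in nuclei 2, where they held 21.5, 4.22 and 5.79% of all UMIs, and monocytes, dendritic cells and granulocytes together held 28.6% in cells.

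**Figure D3:**
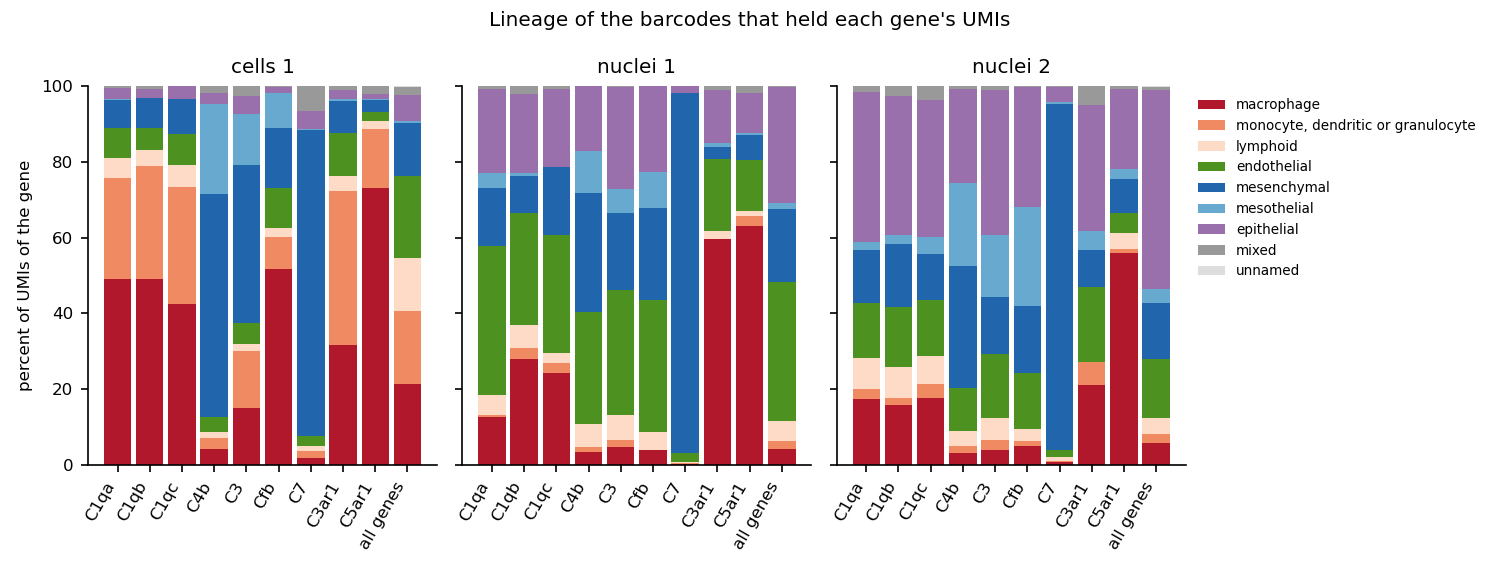
Percent of the UMIs of each gene by the lineage of the barcode that held them, in each library, with the last bar of each panel giving the lineages' shares of all UMIs. C7 is almost wholly mesenchymal (80.9, 94.9 and 91.3%), C5ar1 mostly macrophage (73.2, 63.0 and 56.0%), and C1q genes split between macrophages and other myeloid cells in the cell library.

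C4b, the classical pathway component cleaved by activated C1, was a stromal and mesothelial transcript. Mesothelial barcodes held 1055 CPM of C4b in cells and 152 and 296 CPM in nuclei 1 and nuclei 2. Adventitial fibroblasts held 358 CPM in cells and 62.3 and 191 CPM in nuclei, and alveolar fibroblasts held 170 CPM in cells and 38.0 and 109 CPM in nuclei. In all 3 classes the cell library was highest and nuclei 1 lowest, with no overlap of the groups, and in nuclei the ranges of these neighbours overlapped. The log2 fold was 2.27 ± 0.383 in mesothelial barcodes (adjusted p = 0.000217, edgeR; 2.87 without nuclei 2), 1.71 ± 0.46 in adventitial fibroblasts (adjusted p = 0.00221; 2.47 without nuclei 2, 0.95 without nuclei 1) and 1.15 ± 0.476 in alveolar fibroblasts, which did not pass (adjusted p = 0.1002). The call in adventitial fibroblasts ended with DESeq2 (adjusted p = 0.274) and with a finer clustering (0.0526). In the opposite direction, C4b was lower in cells within B cells (-2.64), T cells (-2.85) and general capillary endothelium (-2.13), classes in which 7.52, 9.29 and 5.45% of genes were lower and 12.3, 14.5 and 12.5% higher. Without nuclei 2 these folds were -1.83, -2.01 and -1.57; DESeq2 ended the T cell call (adjusted p = 0.116), RLE scaling that in B cells (0.0697) and no scaling that in capillaries (0.0951). B cells held 4.54 CPM of C4b in cells and 24.96 and 47.8 CPM in nuclei, from 6, 9 and 22 UMIs. Whether these UMIs were free RNA was not tested, nor was the part of free RNA in the lower calls.

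C3, the component on which all pathways converge, had the same leading classes in the cell library. Mesothelial barcodes held 2743 CPM of C3 in cells and 218 and 456 CPM in nuclei. Adventitial fibroblasts held 1527 CPM in cells and 138 and 158 CPM in nuclei. Alveolar fibroblasts held 434 CPM in cells and 58.4 and 102 CPM in nuclei. The cell library stood above both nucleus libraries in each of these classes. In nuclei, only mesothelial barcodes stood above B cells, which held 105 and 178 CPM. Adventitial fibroblasts lay within that B cell range and alveolar fibroblasts below it. B cells were a high reference for C3, as T cell nuclei held 60.8 and 109.5 CPM and alveolar macrophage nuclei 63.8 and 61.2 CPM. The log2 fold of C3 was 3.07 ± 0.397 in mesothelial barcodes (adjusted p = 1.23e-05, edgeR; 3.74 without nuclei 2), where 12% of genes tested were higher and 5.53% lower in cells. It was 3.55 ± 0.452 in adventitial fibroblasts (adjusted p = 1.14e-12, edgeR; 3.46 without nuclei 2), where 14.9% of genes were higher and 3.91% lower, and 2.37 ± 0.383 in alveolar fibroblasts (adjusted p = 0.0013; 2.73 without nuclei 2), where 15.2% were higher and 6.99% lower. The alveolar fibroblast call was lost with no expression filter (adjusted p = 0.169). A smaller rise was found in alveolar macrophages, at 97.1 CPM in cells and 63.8 and 61.2 CPM in nuclei (1.10 ± 0.321, adjusted p = 0.00227, edgeR; 0.93 without nuclei 2), where 27.1% of genes were higher and 17.6% lower. This call ended with DESeq2 (adjusted p = 0.166) and with no scaling (0.085).

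In the epithelial classes compared, no difference of C3 passed the test. Club barcodes, 140 and 997 in nuclei 1 and nuclei 2, were absent from the cell library and could not be tested. Type 2 pneumocytes (AT2), the surfactant makers, held 126 CPM of C3 in cells and 53.9 and 95.2 CPM in nuclei, and this difference did not pass (log2 fold 0.77 ± 0.359, adjusted p = 0.109, edgeR). In AT2 20.6% of genes were higher and 15.2% lower. AT1 (0.26 ± 0.413; 11% of genes higher, 3.39% lower) and ciliated barcodes (-0.62 ± 0.475; 13.4% higher, 9.43% lower) did not pass either. Classical monocytes of the cell library held 233 CPM of C3. In the other direction C3 was lower in cells within B cells (-2.51, adjusted p = 1.29e-05, edgeR), venous endothelium (-1.91), T cells (-1.51) and aerocyte capillaries (-1.34), where 5.54% (venous) and 10.7% (aerocytes) of genes were lower and 14.1 and 17.7% higher. Without nuclei 2 the folds were -2.12 in B cells, -0.90 in venous endothelium, -1.10 in T cells and -0.66 in aerocytes, and DESeq2 ended the last 3 calls (adjusted p = 0.302, 0.213 and 0.250). B cells held 19.7 CPM of C3 in cells, far below their nuclei, and the thinned share of B cell barcodes with C3 was 2.07% in cells, 8.33% in nuclei 1 and 14.8% in nuclei 2 (unthinned 4.75, 25 and 19.5%). The B cell level is itself the first of these lower calls, and the part of free RNA in them was not tested. Mesothelial barcodes stood above it in every library, with thinned shares of 83.5, 19.6 and 31.5% (unthinned 93.7, 49.0 and 56.5%) at median depths of 3155, 4351.5 and 2753.5 UMIs.

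Cfb, the protease of the alternative pathway convertase, was highest in mesothelial barcodes, at 213.5 CPM in cells and 31.8 and 75.8 CPM in nuclei. Alveolar macrophages held 39.1 CPM in cells and 8.18 and 8.74 CPM in nuclei. In both classes the cell library was high and the groups did not overlap. The log2 fold was 1.96 ± 0.426 in mesothelial barcodes (adjusted p = 0.0027, edgeR; 2.66 without nuclei 2) and 2.66 ± 0.464 in alveolar macrophages (adjusted p = 9.76e-08, edgeR; 2.5 without nuclei 2). The mesothelial call ended with DESeq2 (adjusted p = 0.164). Adventitial fibroblasts held 65.8 CPM in cells and 8.90 and 27.3 CPM in nuclei, from 2 and 5 UMIs in nuclei, and did not pass (2.08 ± 0.847, adjusted p = 0.0675). B cells held 3.02, 2.77 and 17.4 CPM of Cfb, from 4, 1 and 8 UMIs. Alveolar and interstitial macrophages, with 21.5% of all UMIs of the cell library, held 51.7% of its Cfb UMIs; in nuclei they held 4.22 and 5.79% of all UMIs and 4.03 and 5.09% of those of Cfb. The overlapping Gm20547 was at 318, 111 and 169.5 CPM in mesothelial barcodes but at 1.34, 11.5 and 6.36 CPM in alveolar macrophages, so the 2 names shared the mesothelial class and not the macrophage class.

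C7, which joins the membrane attack complex after C5b and C6, was a fibroblast transcript and went the other way. Alveolar fibroblasts held 805 CPM of C7 in cells and 2429 and 3161 CPM in nuclei. Adventitial fibroblasts held 184 CPM in cells and 1434 and 2282 CPM in nuclei. The cell library was low and both nucleus libraries were high in both classes, with no overlap. The log2 fold was -1.87 ± 0.506 in alveolar fibroblasts (adjusted p = 0.0217, edgeR; -1.75 without nuclei 2) and -3.15 ± 0.494 in adventitial fibroblasts (adjusted p = 9.48e-09, edgeR; -2.90 without nuclei 2). The alveolar fibroblast call was lost with no expression filter (adjusted p = 0.170), with a finer clustering (0.0616), and kept its direction in both. Mesenchymal barcodes held 80.9% of all C7 UMIs in cells and 94.9 and 91.3% in nuclei, of which they held 13.8, 19.2 and 14.8% of all UMIs. Every class with a further C7 call was lower in cells as well, which made 8 lower and 0 higher of 16 classes tested. Among them were type 1 conventional dendritic cells (cDC1; -2.96, adjusted p = 0.0465, edgeR), where 16.4% of genes were higher and 6.98% lower, a call that ended with DESeq2 (0.306). The folds of C7 in pericytes (0.49; 8.75% of genes higher, 3.84% lower) and in smooth muscle and myofibroblasts (-1.55; 10.7 and 4.81%) did not pass. These counts hold for a separate fit per class. In 1 fit over all classes C7 passed as higher in AT2 (1.48, adjusted p = 0.00334, edgeR) and in pericytes (1.14, 0.04996). Outside fibroblasts C7 was far lower: B cells held 12.1 CPM in cells and 5.55 and 86.9 CPM in nuclei, and T cells 7.34, 28.4 and 109.5 CPM. AT2 (55.8 CPM), pericytes (51.8), ciliated barcodes (35.1) and AT1 (30.3) lay above B cells in the cell library and in nuclei 1, but not in nuclei 2. Without nuclei 2, whose B cell level of C7 was the highest, the fold in alveolar macrophages went from -2.08 to -0.90, in T cells from -2.74 to -1.46 and in venous endothelium from -3.13 to -1.62.

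After thinning, C7 was detected in 47.5% of alveolar fibroblast cells and in 75.7 and 86.3% of nuclei (unthinned 74.2, 91.4 and 94.3%), at median depths of 2844, 4831.5 and 2954 UMIs. B cells gave thinned shares of 0.826, 0.758 and 8.80% (unthinned 2.89, 1.52 and 10.2%). Every alveolar fibroblast share of C7 thus lay far above background, and the order of the shares was that of the CPM levels.

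The receptors followed the macrophages. C3ar1, which binds C3a, was at 224 CPM in interstitial macrophage cells and at 98.0 and 53.5 CPM in nuclei, from 60, 56 and 15 UMIs. No other class among the 16 exceeded 11.4 CPM in any library. B cells gave 3 UMIs of C3ar1 in cells and 0 in both nucleus libraries, where 3 UMIs would have been 8.32 and 6.52 CPM. The cell library was above both nucleus libraries in interstitial macrophages, with a log2 fold of 1.83 ± 0.415 (adjusted p = 0.000112, edgeR; 1.45 without nuclei 2). This call ended with DESeq2 (adjusted p = 0.103) and when cDC2 barcodes were pooled in (0.65, adjusted p = 0.227, edgeR). Outside the 16 classes, C3ar1 reached 109 CPM in 34 basophil or mast cells and 47.5 CPM in cDC2 of the cell library.

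C5ar1, the main receptor of C5a, was shared by both macrophage classes. Alveolar macrophages held 228 CPM in cells and 132 and 85.8 CPM in nuclei. Interstitial macrophages held 131 CPM in cells and 159 and 78.5 CPM in nuclei. The cell library was highest in alveolar macrophages, whereas in interstitial macrophages it lay between the nucleus libraries. The log2 fold was 1.55 ± 0.305 in alveolar macrophages (adjusted p = 3.22e-06, edgeR; 1.11 without nuclei 2) and 0.42 ± 0.434 in interstitial macrophages, which did not pass (adjusted p = 0.506). Neutrophils of the cell library held 180 CPM and non-classical monocytes 66.9 CPM, and B cells 6.80, 0 and 10.9 CPM. After thinning, C5ar1 was detected in 19.8% of alveolar macrophage cells and 10.8 and 8.67% of nuclei (unthinned 48.7, 35.7 and 21.1%; median depths 3263, 4101 and 2846 UMIs), against 0.826, 0 and 0.352% in B cells.

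**Figure D4:**
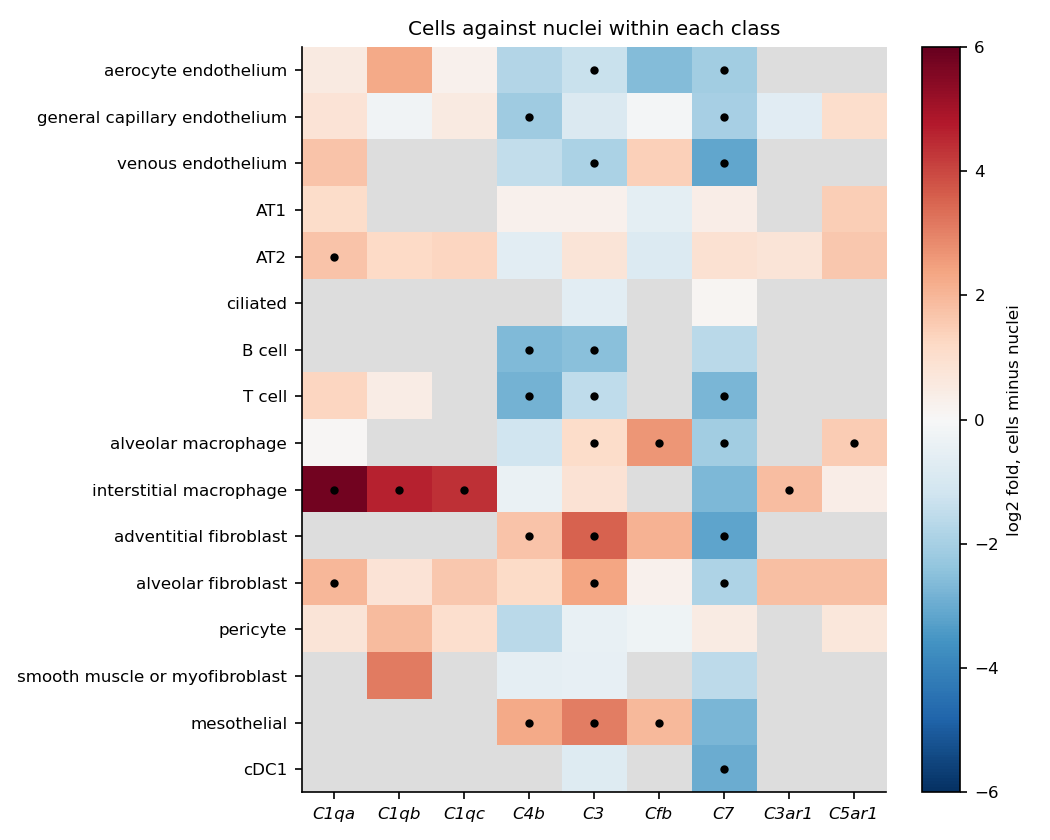
Log2 fold of each gene, cells minus nuclei, within each of 16 classes, in colour from blue (lower in cells) to red (higher in cells); grey marks pairs not tested and a black dot an adjusted p under 0.05 (edgeR). C1qa, C1qb and C1qc are deepest red in interstitial macrophages (5.80, 4.60 and 4.39), C3 changes from red in fibroblasts and mesothelial barcodes to blue in B cells, and every dot of C7 is blue.

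Over the 91 pairs of gene and class that passed the filter on low counts, 15 were higher in cells, 15 were lower and 61 did not pass. Over all genes and the same 16 classes, 15% of pairs were higher and 8.08% lower. C1qa was higher in 3 of 10 classes tested, C1qb and C1qc in 1 of 8 and 1 of 6, Cfb in 2 of 10, C3ar1 in 1 of 4 and C5ar1 in 1 of 7, with none lower. C3 was higher in 4 and lower in 4 of 16, and C4b higher in 2 and lower in 3 of 14. Whether the difference itself changed between classes was tested with an interaction of preparation and class in 1 edgeR fit, where 16.4% of 15492 genes passed. A library term took out the difference that the 2 nucleus libraries shared over all classes. The spread left (15 residual degrees of freedom) came from how that difference varied between classes. Classes of the same 2 libraries are not independent replicates. The fold of C3 (adjusted p = 5.75e-10), C4b (1.19e-08), C1qa (5.26e-07), C7 (0.000136), C1qb (0.000394), Cfb (0.00221) and C1qc (0.00269) differed between classes, and those of C3ar1 (0.403) and C5ar1 (0.520) did not pass. Without the library term, Cfb (0.106) and C7 (0.353) no longer passed.

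Over whole libraries, scaled by edgeR's TMM factors, 4 of the 9 genes were higher in cells and 1 lower, where 16.6% of 19795 genes were higher and 8.59% lower; the median log2 fold was 1.28 for the 9 genes and -0.03 for all genes. Here fewer cells of a type and less RNA per cell cannot be told apart. C5ar1 was at 71.4 CPM in cells and 9.91 and 7.94 CPM in nuclei, and C1qa at 35.9 CPM in cells and 5.52 and 6.33 CPM in nuclei. Both stood clear of the nucleus libraries, with log2 folds of 3.0 ± 0.319 (adjusted p = 0.00413, edgeR; 2.83 without nuclei 2) and 2.60 ± 0.338 (adjusted p = 0.0053; 2.67 without nuclei 2). C1qb (26.3 CPM in cells, 6.61 and 5.41 CPM in nuclei) and C1qc (15.4, 4.07 and 3.70 CPM) were higher by 2.13 ± 0.363 (adjusted p = 0.0106) and 1.99 ± 0.41 (adjusted p = 0.0185), and by 1.97 and 1.895 without nuclei 2. C7 was at 74.0 CPM in cells and 336 and 382 CPM in nuclei and was lower in cells, at -2.28 ± 0.408 (adjusted p = 0.012, edgeR; -2.20 without nuclei 2).

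C3 (152 CPM in cells, 56.7 and 91.2 CPM in nuclei), Cfb (17.3, 5.41 and 9.41 CPM) and C3ar1 (7.73, 3.59 and 2.77 CPM) were each highest in cells but did not pass, with adjusted p of 0.0928, 0.096 and 0.101 in edgeR. C4b (33.3, 21.8 and 43.8 CPM) had its cell value between the nucleus libraries, at 0.02 (adjusted p = 0.978). The sign of C4b turned with 1 library, to -0.41 without nuclei 1 and 0.60 without nuclei 2. Plain CPM was also averaged over 20 classes weighted by their shares of UMIs, with the cell library first at its own shares and then at those of nuclei. Between these, with no test, the log2 fold of C5ar1 went from 2.81 to 1.2 and that of C7 from -2.51 to -1.67, while C4b went from -0.09 to 0.82 and C1qa from 2.42 to 2.90.

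**Figure D5:**
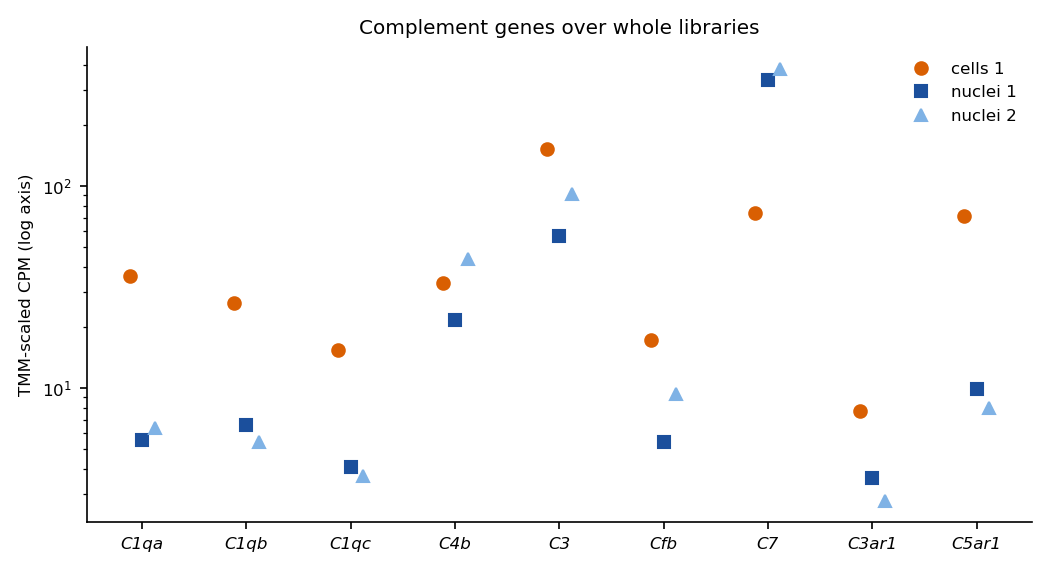
TMM-scaled CPM of the 9 genes over each whole library, on a log axis, with orange circles for cells and blue squares and triangles for nuclei 1 and nuclei 2. C7 is the only gene of the 9 whose cell value lies below both nucleus libraries (74.0 against 336 and 382 CPM), and the cell value of C4b lies between them.

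Of 45 other complement genes on a list of components, regulators and receptors, 41 were in both tables and 38 were tested over whole libraries: 8 were higher in cells and 4 lower, with a median log2 fold of -0.17. Over all genes 16.6% were higher and 8.59% lower, so these counts were near the background. Among 11 recognition molecules and proteases of the classical and lectin pathways none passed in either direction. Of 7 receptors 5 were higher and 0 lower, with a median of 2.32. The integrin chains of complement receptors 3 and 4, Itgam (2.32), Itgax (2.74) and Itgb2 (3.18), rose together with C5ar2 (3.11), the other C5a receptor. Cd93, an endothelial surface protein once described as a C1q receptor, was at 328.5 CPM in cells and 80.7 and 55.5 CPM in nuclei (2.27, adjusted p = 0.00918, edgeR).

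The 2 other terminal components with many counts were lower in cells, like C7, and were led by AT2. Hc, which encodes C5, was at 48.2 CPM in cells and 336 and 374 CPM in nuclei (-2.88, adjusted p = 0.00688, edgeR), with AT2 at 808 CPM in cells and 1322 and 2010 CPM in nuclei. C6 was at 11.8 CPM in cells and 79.0 and 73.1 CPM in nuclei (-2.69, adjusted p = 0.0054), with AT2 at 131 CPM in cells and 301 and 247 CPM in nuclei. Within AT2 neither passed (Hc -1.03, adjusted p = 0.105, and C6 -1.08, adjusted p = 0.0514, edgeR). AT2 made up 4.06% of cells against 19.7 and 16.7% of nuclei. In every other compared class Hc passed as lower in cells, as in alveolar fibroblasts (-2.95, adjusted p = 0.00232, edgeR). B cells, the background reference, were among these classes (-5.11, adjusted p = 1.96e-13, edgeR). Hc was at 4.59, 113 and 213 TMM-scaled CPM in B cells of cells, nuclei 1 and nuclei 2. Alveolar fibroblasts held 9.66, 52.5 and 97.8, so their nuclei lay below those of B cells in both libraries. Over the 16 classes, 3.39 to 17.6% of genes were lower and 8.75 to 27.1% higher. C6 passed as lower in alveolar fibroblasts (-2.47, adjusted p = 0.0131, edgeR) but not in pericytes (-2.07, adjusted p = 0.175). It also passed as lower in B cells (-2.73, adjusted p = 0.0378, edgeR), among other classes. The part of free RNA in the lower calls of Hc and C6 was not tested. The part of class shares in the whole-library folds was not tested. The properdin gene Cfp, which stabilises the alternative convertase, was higher in cells (27.6 CPM against 4.03 and 4.004 CPM; 2.78, adjusted p = 0.00529). Cfd, factor D, had 3 UMIs in cells against 419 and 111 in nuclei. Of the regulators, Clu (1.67) and Vtn (2.35) were higher and Susd4 (-3.15) lower. Among abundant regulators that did not pass were Cr1l (-0.02), Csmd1 (-0.53), Serping1 (0.88), Cd55 (-0.32) and Cd46 (-1.02). Colec12 (-0.77), an abundant recognition molecule, did not pass either.

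The 9 genes fell into patterns across the 48 sums of 1 class in 1 library, described by Pearson's r of log2(CPM + 10) without a test, since the sums share libraries and depth. C1qa was most like C1qb (0.91), C3ar1 (0.84) and Mgl2 (0.84), and C3ar1 most like Ms4a7 (0.92), Mgl2 (0.92) and C1qb (0.89). C4b was most like C3 (0.90), Gm20547 (0.89) and Dcn (0.88), and Cfb most like C3 (0.78). C7 was most like Plcxd3 (0.92), Meox2 (0.92) and Frem1 (0.89), and its r with C3 was 0.29. C5ar1 was most like Clec4a3 (0.93), Cd33 (0.92) and Mrc1 (0.92).

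Gene length moved with the direction of the difference over all genes. The 2607 genes under 5 kb had a median whole-library log2 fold of 0.98, and the 5369 genes of 50 kb or more had -0.60. C1qa (2.9 kb) and C1qc (3.3 kb) are of the first kind, and C7 (75.0 kb), Hc (78.1 kb) and C6 (87.8 kb) of the last, whereas Cfd, at 1.8 kb, was lower in cells. C3, at 24.2 kb, falls in the range from 20 to 50 kb, whose median was -0.11. Its whole-library log2 fold was 1.04, which did not pass (adjusted p = 0.0928, edgeR). Its folds within classes, a different measure, ran from 3.55 in adventitial fibroblasts to -2.51 in B cells. The part of gene length in the differences was not tested.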

How the data were processed

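The submitters deposited UMI counts per gene and barcode. Their processing notes name STAR 2.5.3a and the mm10 build; for the counting program, intron use and barcode filter, no statement was found (not given in the sources used here). No row was without a gene name. A barcode was kept at 400 genes or more with mitochondrial UMIs under 20%, and 126 doublets called in nuclei 2 were removed; in the other libraries the caller marked under 0.5% and nothing was removed. The largest gene number per barcode was 2499 in cells and nuclei 1 and 2999 in nuclei 2. Leiden clusters (scanpy 1.11.5, resolution 1, igraph 0.11.9) were named from marker lists; the rules that a leading gene be in 25% of barcodes and that clusters be split again were set after clusters were seen. Counts were summed per library, or per library and class, and tested with edgeR 4.0.16 (quasi-likelihood, TMM, filterByExpr, Benjamini-Hochberg over all genes tested) in R 4.3.3; DESeq2 1.42.0 was an alternative. The SE of a fold is its size divided by the root of the F statistic. On simulated counts the whole-library test recovered 26% of 4-fold and 90% of 8-fold changes, and that of interstitial macrophages 50 and 80%. The interaction test recovered 45% of 8-fold changes placed in 1 class, so a gene that did not pass it may still differ between classes. All 9 members are named, and of the listed other complement genes the 12 with most CPM and those that passed, except that some items are not reported here. The members and lists were chosen with earlier results of these data known, and motifs after the promoters were read. CPM levels by class are plain; those of whole libraries are TMM-scaled. Intervals cover counting error only.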

Additional observations from a re-analysis of the deposited data

Results flagged for a closer look

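For 7 of the 9 genes the difference between cells and nuclei itself differed between the 16 classes, by the interaction of preparation and class in edgeR: C3 (adjusted p = 5.754e-10), C4b (1.192e-08), C1qa (5.261e-07), C7 (0.0001359), C1qb (0.0003944), Cfb (0.002212) and C1qc (0.002694). Over all genes 16.4% of 15492 passed this test. Its spread came from classes of the same 2 nucleus libraries, which are not independent replicates. Without the library term Cfb (0.106) and C7 (0.353) no longer passed. For C3 the log2 fold, here from a separate fit for each class, ran from 3.55 in adventitial fibroblasts to -2.51 in B cells. For C4b it ran from 2.27 in mesothelial barcodes to -2.85 in T cells. For C1qa it was 5.80 in interstitial macrophages, for C1qb 4.60 and for C1qc 4.39. For C7 it ran from 0.91 in AT2, which did not pass, to -3.15 in adventitial fibroblasts. In the interaction's own fit, C7 passed as higher in AT2 (1.48, adjusted p = 0.00334, edgeR) and in pericytes (1.14, 0.04996). That fit kept C7 lower in adventitial fibroblasts (-2.69, adjusted p = 3.02e-05, edgeR). For Cfb the separate fits gave 2.66 in alveolar macrophages and 0.28 in alveolar fibroblasts, where the fold did not pass. The B cell levels of C3, C4b and C7, given in the report, were higher in both nucleus libraries for C3 and C4b and in nuclei 2 for C7, and their part in the interaction was not tested.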

How the results depend on the processing

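No paired analysis was possible because the cell group has 1 library. The counts over whole libraries, 4 higher and 1 lower, were the same under each alternative tested (DESeq2, no scaling, RLE scaling, no filter, all deposited barcodes). The fold of C4b there turned to -0.177 with no scaling and -0.407 without nuclei replicate 1 (0.595 without nuclei replicate 2). The median over all genes was -0.025 with TMM, -0.195 with no scaling and -0.051 with RLE. Within classes, DESeq2 gave 9 higher and 6 lower in place of 15 and 15, and 1 fit over all classes with the library as a block gave 32 higher and 15 lower; the cause was not tested. DESeq2 ended 14 of the 30 class calls, among them C3ar1 in interstitial macrophages, Cfb in mesothelial barcodes (adjusted p = 0.164) and C4b in adventitial fibroblasts (0.274). With no filter, 3 calls in alveolar fibroblasts ended (C3 at 0.169, C7 at 0.170, C1qa at 0.175), and with no scaling 6 ended. No called fold within a class changed sign in any alternative. Leaving out nuclei 2 took C3 in venous endothelium to -0.90 and in aerocytes to -0.66, C4b in B cells to -1.83 and C4b in T cells to -2.01. Of 299 class folds recomputed, 258 were counted as unchanged, 30 lost their call and 11 moved. Where a test was run, unchanged meant the same direction and side of the threshold. Without 1 nucleus library there was no test, and unchanged meant a shift within the SD of the 2 nucleus libraries on the log2 scale. Cfb in adventitial fibroblast nuclei rested on 2 and 5 UMIs and C3ar1 in interstitial macrophages of nuclei 2 on 15, so small differences were not detectable there.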

Other observations

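Serping1, the C1 inhibitor, was at 1181 CPM in adventitial fibroblast cells and 254 and 317 CPM in nuclei. C1s1 and C1ra, the proteases that C1q carries, were higher in cells of the 3 classes that led for C3 in the cell library: C1s1 by 1.69, 1.87 and 1.79 and C1ra by 2.37, 1.84 and 1.94 in adventitial fibroblasts, alveolar fibroblasts and mesothelial barcodes. Colec12, a collectin, was higher in nuclei 2 alone in alveolar macrophages, at 89.4, 27.6 and 341 TMM-scaled CPM in cells, nuclei 1 and nuclei 2.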
